A study of Mus musculus with 6 samples.

Results

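Nuclear genes for the respiratory chain were compared between murine oviductal epithelial cells of late passage, MOE HIGH, and of early passage, MOE LOW. The genes were taken by symbol, as every Ndufa, Ndufb, Ndufc, Ndufs and Ndufv gene with a number, Sdha to Sdhd, and all symbols that begin with Uqcr, with Cox4 to Cox8 and a letter, or with Atp5. This gave 85 of the 22800 symbols in the tables, each with 1 entry: 37 for complex I, 4 for complex II, 8 for complex III, 19 for complex IV and 17 for complex V. Of these, 81 name a subunit or a tissue isoform of one. The other 4 are Cox4nb, a gene of the endoplasmic reticulum beside Cox4i1, Cox7a2l, a factor that joins complexes III and IV, Atp5s, which is coupling factor B, and its relative Atp5sl. One more symbol, Ndufa4, was counted by its name under complex I, although its protein is now known as a subunit of complex IV.

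The respiratory chain lies in the inner membrane of mitochondria. Complexes I and II take electrons from NADH and succinate and pass them to ubiquinone, complex III hands them to cytochrome c, and complex IV gives them to oxygen. Complexes I, III and IV pump protons as they work, and complex V, the ATP synthase, lets protons back through a rotor to make ATP. Most subunits are encoded in the nucleus and a few of the innermost ones in mitochondrial DNA, so the nuclear genes have to be expressed together for complexes to assemble. In secretory epithelia such as that of the oviduct the chain supplies ATP for protein synthesis and secretion.

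The cells were 1 line, established from oviducts pooled from several 8-week-old CD1 females, an outbred strain, and grown with epidermal growth factor, insulin and estradiol. MOE HIGH is the same line after continuous passage on plastic, sampled at passages 90, 103 and 113, and MOE LOW was sampled at passages 8, 9 and 10. No gene was altered and no agent separated the groups. Total RNA depleted of ribosomal RNA was sequenced, 1 library per passage, and gene levels were deposited as FPKM, fragments scaled to transcript length and to the mapped fragments of the library. The 3 libraries of a group are passages of 1 line, so p-values measure the spread between passages, part of which may be technical. The column headings inside some tables name another passage than the sample record does, and the passages given here are those of the record. In the 6 libraries, 10208 to 10987 genes were at 1 FPKM or more. Pax8, which marks oviductal secretory cells, was at 41.0, 48.8 and 45.3 FPKM in MOE HIGH, against 48.8, 44.4 and 54.4 FPKM in MOE LOW, and among epithelial markers Krt18 was at 779 to 2371 FPKM and Krt19 at 553 to 967 FPKM over the 6 libraries, while Epcam and Cdh1 stayed under 0.1 FPKM in every library. Krt8 was at 22.6 to 55.2 FPKM and Krt7 at only 0.317 to 2.79 FPKM. Levels of the secretory markers thus differed widely, and cell identity was not tested. Summed FPKM of 7 smooth muscle markers was 70.5 to 108 in MOE HIGH, against 7822 to 11164 in MOE LOW, and that of 8 fibroblast markers was 22.4 to 32.7 in MOE HIGH, against 595 to 983 in MOE LOW. Of those, 6 of 6 and 5 of 6 that could be tested were lower in MOE HIGH. Of 6 tested markers of oviductal secretory cells, Krt18 and Krt7 were higher and 4 did not pass, and of 4 tested markers of ciliated cells, Foxj1 and Tubb4b, a tubulin that many cells express, were higher, Rsph1, listed at 0 in MOE HIGH, was lower and 1 did not pass. Summed markers of endothelium and of leukocytes were below 8 FPKM in every library. In libraries of many cells, fewer cells of a type and less RNA per cell cannot be told apart, and the part of these markers in the results below was not tested.

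Of the 85 genes, 78 passed a minimum mean of 0.5 FPKM over the 6 libraries and were tested among 11621 genes with limma on log2(FPKM + 1). At an adjusted p of 0.05, 22 were higher in MOE HIGH and 3 lower, and 53 missed the threshold. As a share, 28.2% of the respiratory chain genes were called higher, where the background over all genes was 24.3%, and 3.85% were called lower, where the background was 32.1%. The share called lower was thus below that of all genes, and the share called higher was near it, which depended on the scaling. Their median log2 fold change was 0.22, with 59 of 78 above 0, and that of all genes was -0.05. The MOE HIGH libraries lay above all MOE LOW libraries for 25 of the 78 genes (28.5% of all genes did so), lay below them for 4 (35.5% of all genes) and overlapped them for 49. With libraries scaled to equal total FPKM, 27 were higher and 8 were lower, where 19.4% and 30.6% of all genes were. Every log2 fold change is MOE HIGH over MOE LOW on the log2(FPKM + 1) scale, which understates the change of genes at low levels.

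**Figure D1:**
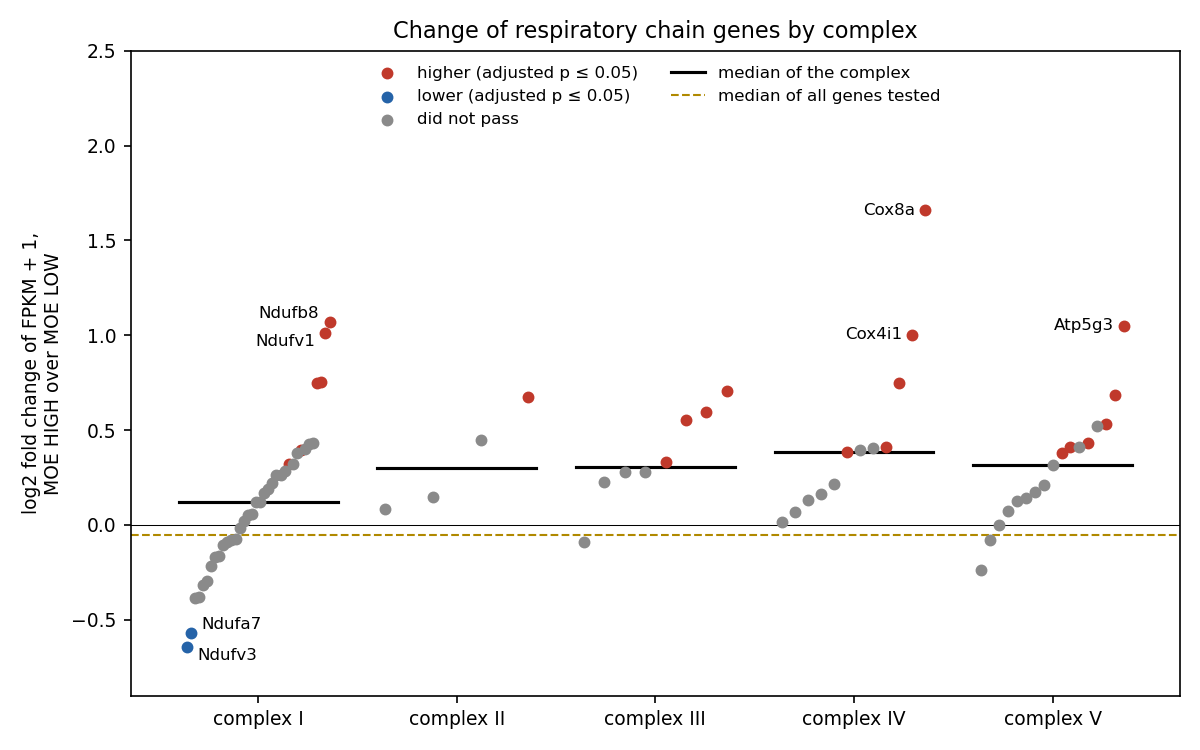
Each point is 1 of 77 tested genes, drawn by complex, with its log2 fold change of FPKM + 1, MOE HIGH over MOE LOW, on the vertical axis. Red and blue points passed an adjusted p of 0.05 from limma, black lines are medians of all tested genes of a complex (0.12 for complex I to 0.39 for complex IV) and the dashed line is the median of all genes (-0.05); Cox6b2, listed at 0 in MOE HIGH, is not drawn.

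Of the libraries, that of passage 113 moved the count of higher genes most. Without it, 49 genes were higher and 4 lower, beside 28.5% and 37.5% of all genes, and the median log2 fold change was 0.37. Leaving out passage 8 or 10 left 12 higher, leaving out passage 103 left 13, passage 90 left 14 and passage 9 left 16. Over all genes the count of higher genes fell as well, from 2826 with all libraries. It was 2212 without passage 8, 2281 without passage 9 and 2258 without passage 10. Without passage 90 it was 2566, and without passage 103 it was 2382. Called in all 6 of these fits were 12 of the 22: Cox8a, Cox4i1, Cox4nb, Atp5g3, Atp5c1, Atp5a1, Ndufb8, Ndufv1, Ndufs8, Ndufa10, Sdhd and Uqcrfs1. Of the 3 lower genes, Cox6b2 and Ndufv3 kept their call in all 6. Where a library is left out of a group, its fit has 5 libraries, and the spread is shared between the groups.

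As examples of start regions, the 250 bases upstream of the start site in RefSeq (GRCm38.p6) are printed 5′ to 3′ for Cox8a, Atp5g3, Ndufv1 and Sdhd, whose rise held with each library left out, and, chosen for their letters, for Atp5k, whose rise did not hold so, and Ndufa7, which was lower. They lie at chr19:7217617-7217866 for Cox8a, chr2:73911327-73911576 for Atp5g3, chr19:4012756-4013005 for Ndufv1, chr9:50603850-50604099 for Sdhd and chr5:108434400-108434649 for Atp5k, all on the minus strand, and at chr17:33824395-33824644 on the plus strand for the second of 2 start sites of Ndufa7. The first site of Ndufa7 held none of the letters below and is not shown. Capitals mark the letters CGCANGCG, which nuclear respiratory factor 1 (NRF1) can bind, CCGGAAG, bound by ETS factors such as GABP, CCAAT, bound by NF-Y, and TCAAGGTCA, bound by estrogen-related receptors. Both strands were searched, and none of the marked letters overlap.
Cox8a: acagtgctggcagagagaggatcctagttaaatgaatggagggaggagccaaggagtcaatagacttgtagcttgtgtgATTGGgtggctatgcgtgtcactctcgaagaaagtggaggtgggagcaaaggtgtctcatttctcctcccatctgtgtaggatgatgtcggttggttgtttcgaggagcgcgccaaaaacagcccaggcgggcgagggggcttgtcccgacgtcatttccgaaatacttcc
Atp5g3: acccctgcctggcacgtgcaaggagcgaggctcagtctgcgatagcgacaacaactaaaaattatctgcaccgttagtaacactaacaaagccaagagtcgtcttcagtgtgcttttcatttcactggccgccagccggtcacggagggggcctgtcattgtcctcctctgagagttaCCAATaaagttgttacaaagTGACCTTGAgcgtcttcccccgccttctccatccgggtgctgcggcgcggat
Ndufv1: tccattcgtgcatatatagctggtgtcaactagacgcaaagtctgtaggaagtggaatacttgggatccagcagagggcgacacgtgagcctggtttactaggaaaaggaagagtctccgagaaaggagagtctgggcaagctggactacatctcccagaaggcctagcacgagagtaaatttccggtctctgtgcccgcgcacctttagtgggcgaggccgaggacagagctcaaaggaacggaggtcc
Sdhd: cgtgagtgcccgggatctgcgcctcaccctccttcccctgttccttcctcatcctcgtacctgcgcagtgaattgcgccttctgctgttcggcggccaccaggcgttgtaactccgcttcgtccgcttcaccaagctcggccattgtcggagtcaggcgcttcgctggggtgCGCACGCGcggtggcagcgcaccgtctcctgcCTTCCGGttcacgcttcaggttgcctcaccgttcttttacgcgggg
Atp5k: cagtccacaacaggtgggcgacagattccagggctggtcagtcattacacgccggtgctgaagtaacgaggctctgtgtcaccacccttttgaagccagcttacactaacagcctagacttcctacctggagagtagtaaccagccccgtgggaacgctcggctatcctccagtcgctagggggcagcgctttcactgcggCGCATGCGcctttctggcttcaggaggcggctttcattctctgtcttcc
Ndufa7: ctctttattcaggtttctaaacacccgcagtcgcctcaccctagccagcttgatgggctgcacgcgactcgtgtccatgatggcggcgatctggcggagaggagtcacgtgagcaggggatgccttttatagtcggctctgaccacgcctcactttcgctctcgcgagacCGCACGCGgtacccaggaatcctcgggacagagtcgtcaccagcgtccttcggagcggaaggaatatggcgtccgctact

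Of the 85 genes, 69 had a start site in the RefSeq table, with 75 sites in all. The NRF1 letters stood in 21 of the 75 upstream regions (28.0%) and in 6.76% of the 32851 regions of all genes. The ETS letters stood in 16.0% of the respiratory chain regions and in 6.91% of all regions, and CCAAT in 42.7% and 33.9%. TCAAGGTCA stood in 1 region, that of Atp5g3, and in 0.387% of all regions. By gene, the NRF1 letters were present for 3 of 17 genes that were higher, 1 of 3 that were lower and 15 of 46 that did not pass. None of the 4 patterns was found upstream of Ndufv1. A match describes letters in this window and does not show binding.

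Complex I, the NADH dehydrogenase, has an arm in the matrix that carries the redox centers and an arm in the membrane. Of its 36 tested genes, 6 were higher and 2 lower, and 28 missed the threshold, with a median log2 fold change of 0.12. These shares of 16.7 and 5.56% stand beside 24.3% higher and 32.1% lower over all genes. Higher were 4 of 7 core genes, which carry the flavin, the iron-sulfur clusters and the ubiquinone site, and 2 of 29 accessory genes, which surround that core. Without passage 113 the complex had 17 higher genes, 5 of 7 core and 12 of 29 accessory genes, where 28.5% of all genes were higher. The contrast of core and accessory genes was not tested. Without any other single library the complex had 4 or 5 higher genes. Its summed FPKM was 0.916, 0.908 and 0.823% of the library in MOE HIGH, against 0.893, 0.881 and 0.847% in MOE LOW, and these ranges overlapped.

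Values of single genes follow in the order of passages 90, 103 and 113 for MOE HIGH and 8, 9 and 10 for MOE LOW. Ndufv1, the flavoprotein that takes electrons from NADH, lies on chromosome 19 from 4007499 to 4012755 of GRCm38 and was at 130, 123 and 96.5 FPKM in MOE HIGH, against 57.4, 59.5 and 53.9 FPKM in MOE LOW. It rose by 1.01 on the log2 scale (limma adjusted p = 0.00037, standard error, SE, 0.13). Ndufs8, an iron-sulfur subunit on the path of electrons to ubiquinone, was at 212, 203 and 153 FPKM in MOE HIGH, against 113, 120 and 99.0 FPKM in MOE LOW (log2 fold change 0.76, limma adjusted p = 0.0034, SE 0.15). For both genes the lowest MOE HIGH library, passage 113, lay above the highest MOE LOW library. Ndufb8, an accessory subunit of the membrane arm, was at 227, 208 and 140 FPKM in MOE HIGH, against 89.7, 93.8 and 83.1 FPKM in MOE LOW. Its log2 fold change of 1.07 (limma adjusted p = 0.0015, SE 0.18) was the largest in the complex. Exons of Ndufb8 overlap those of Gm20538 on the same strand, so reads of the overlap are uncertain. Ndufa10, also of the membrane arm, was at 127, 127 and 108 FPKM in MOE HIGH, against 72.6, 74.9 and 66.7 FPKM in MOE LOW (log2 fold change 0.75, limma adjusted p = 0.00065, SE 0.11). Groups did not overlap for these genes either.

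The remaining core genes that passed moved less. Ndufs1, the largest iron-sulfur subunit, was at 56.7, 56.5 and 58.5 FPKM in MOE HIGH, against 45.5, 47.5 and 43.9 FPKM in MOE LOW (log2 fold change 0.32, limma adjusted p = 0.016). Ndufs3, a matrix arm subunit, was at 103, 101 and 76.4 FPKM in MOE HIGH, against 72.7, 74.4 and 64.3 FPKM in MOE LOW (log2 fold change 0.40, limma adjusted p = 0.041). Its reads may be shared with 1 near-identical copy. Over the fits that leave out 1 library, the adjusted p from limma ranged from 0.0104 to 0.0704 for Ndufs1 and from 0.0019 to 0.14 for Ndufs3. Ndufs7 and Ndufv2, also core genes, did not pass, with log2 fold changes of 0.38 and -0.09.

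Lower in MOE HIGH were a pair of accessory genes, both on chromosome 17. Ndufv3, found with the flavoprotein subunits, was at 36.4, 42.5 and 27.4 FPKM in MOE HIGH, against 60.5, 54.4 and 50.7 FPKM in MOE LOW (log2 fold change -0.64, limma adjusted p = 0.011, SE 0.16). Ndufa7, of the matrix arm, was at 188, 149 and 113 FPKM in MOE HIGH, against 246, 217 and 196 FPKM in MOE LOW (log2 fold change -0.57, limma adjusted p = 0.033, SE 0.19). Every MOE HIGH library lay below every MOE LOW library for both, but the adjusted p of Ndufa7 ranged from 0.0072 to 0.12 when 1 library was left out. The most abundant gene of the complex, Ndufa3, was at 875, 689 and 628 FPKM in MOE HIGH, against 1050, 892 and 893 FPKM in MOE LOW. Its groups did not overlap either, and the test was not passed (log2 fold change -0.38, limma adjusted p = 0.072). With equal totals, 7 genes of complex I were lower. The smallest change was that of Ndufb6, at 154, 142 and 117 FPKM in MOE HIGH, against 138, 151 and 127 FPKM in MOE LOW, and its sign turned with passage 9 or 113 left out. Ndufa4 was at 633, 586 and 503 FPKM in MOE HIGH, against 510, 535 and 434 FPKM in MOE LOW (limma adjusted p = 0.21), while its paralog Ndufa4l2, known to be induced in low oxygen, stayed under 0.1 FPKM in all 6 libraries.

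Complex II, the succinate dehydrogenase, is wholly encoded in the nucleus and is also an enzyme of the tricarboxylic acid cycle. Of its 4 genes, 1 was higher (25.0%, where 24.3% of all genes were) and 3 did not pass. Sdhd, a membrane anchor, was at 183, 179 and 173 FPKM in MOE HIGH, against 112, 117 and 106 FPKM in MOE LOW (log2 fold change 0.67, limma adjusted p = 0.00056, SE 0.09). Sdhb, the iron-sulfur subunit, was at 425, 372 and 261 FPKM in MOE HIGH, against 265, 270 and 226 FPKM in MOE LOW (log2 fold change 0.45, limma adjusted p = 0.073), and passage 113 fell inside the range of MOE LOW. Without that library Sdhb was higher (log2 fold change 0.65, limma adjusted p = 0.0022), which made 2 of 4, where 28.5% of all genes were higher. The catalytic flavoprotein gene Sdha had the smallest change, with 45.2, 50.9 and 48.7 FPKM in MOE HIGH, against 46.2, 45.0 and 45.0 FPKM in MOE LOW (log2 fold change 0.09, limma adjusted p = 0.46). Sdhc, the other anchor, was at 61.0, 60.1 and 54.9 FPKM in MOE HIGH, against 53.4, 54.1 and 50.9 FPKM in MOE LOW, apart in every library but short of the threshold (limma adjusted p = 0.21).

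Complex III, the cytochrome c reductase, had 4 of 8 genes higher and 0 lower, with a median log2 fold change of 0.31. Of all genes, 24.3% were higher and 32.1% lower. Uqcrfs1, the Rieske iron-sulfur protein that passes electrons towards cytochrome c, was at 92.9, 94.1 and 88.1 FPKM in MOE HIGH, against 55.3, 59.6 and 52.5 FPKM in MOE LOW (log2 fold change 0.71, limma adjusted p = 0.00046, SE 0.10). This was the gene of the complex with the largest change and the only one whose call held with each library left out. Uqcr10, a small subunit, was at 321, 305 and 191 FPKM in MOE HIGH, against 177, 184 and 166 FPKM in MOE LOW (log2 fold change 0.59, limma adjusted p = 0.032). The core protein genes Uqcrc1 and Uqcrc2 followed, and their libraries differed in pattern. Uqcrc1 was at 234, 209 and 145 FPKM in MOE HIGH, against 131, 137 and 123 FPKM in MOE LOW (log2 fold change 0.55, limma adjusted p = 0.028). Uqcrc2 was at 130, 131 and 133 FPKM in MOE HIGH, against 104, 115 and 94.2 FPKM in MOE LOW (log2 fold change 0.33, limma adjusted p = 0.028). Passage 113 was the lowest MOE HIGH library for Uqcrc1 and the highest for Uqcrc2. Uqcrq, the most abundant gene of the complex, was at 562, 546 and 356 FPKM in MOE HIGH, against 463, 441 and 334 FPKM in MOE LOW, so the groups overlapped (limma adjusted p = 0.39). Uqcrb changed least, with 217, 217 and 175 FPKM in MOE HIGH, against 236, 228 and 184 FPKM in MOE LOW, and its reads may be shared with near-identical copies. Leaving out passage 113 gave 7 higher genes in the complex (28.5% of all genes were higher), leaving out passage 9 or 90 gave 2, and leaving out passage 8, 10 or 103 gave 1.

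Complex IV, cytochrome c oxidase, held the largest rise of all. Of 13 tested genes, 5 were higher and 1 was lower, and the median log2 fold change was 0.39. These shares of 38.5 and 7.69% stand beside 24.3% higher and 32.1% lower over all genes. Among the 13 are Cox4nb, which was higher, and Cox7a2l, which did not pass, and neither names a subunit. The summed FPKM of complex IV was 0.934, 0.976 and 0.856% of the library in MOE HIGH, against 0.585, 0.605 and 0.560% in MOE LOW. Without passage 113 there were 10 higher genes (28.5% of all genes were higher), without passage 8, 10, 90 or 103 there were 3, and without passage 9 there were 4. Cox8a, the general isoform of subunit VIII, lies on chromosome 19 from 7215158 to 7217616 of GRCm38. Its mean over all libraries was the highest of the respiratory chain genes, although Ndufa3 was above it in every MOE LOW library. Cox8a was at 2590, 2611 and 1935 FPKM in MOE HIGH, against 826, 779 and 642 FPKM in MOE LOW. The lowest MOE HIGH library was thus more than double the highest MOE LOW library. Its log2 fold change was 1.66 (limma adjusted p = 0.00012, SE 0.17), and the adjusted p stayed at 0.0011 or below with any library left out. Cox8a made up 36.01, 37.15 and 37.84% of the summed FPKM of complex IV in MOE HIGH, against 20.65, 18.99 and 18.33% in MOE LOW (exact permutation p = 0.10, two-sided, the smallest that 3 against 3 libraries allow).

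Cox4i1, the general isoform of subunit IV, was at 1071, 1009 and 650 FPKM in MOE HIGH, against 464, 473 and 397 FPKM in MOE LOW (log2 fold change 1.0, limma adjusted p = 0.0036, SE 0.20). Cox4nb, whose present name is Emc8, was at 18.7, 17.4 and 17.8 FPKM in MOE HIGH, against 10.6, 10.5 and 9.74 FPKM in MOE LOW (log2 fold change 0.75, limma adjusted p = 0.00037, SE 0.10). These are neighbours on chromosome 8 with exons that overlap on opposite strands, and whether strand was used in counting is not given in the sources used here, so reads of the overlap are uncertain. Cox7a2, the general isoform of subunit VIIa, was at 304, 274 and 227 FPKM in MOE HIGH, against 192, 214 and 194 FPKM in MOE LOW (log2 fold change 0.41, limma adjusted p = 0.028). Subunit VIIc, from Cox7c, was at 165, 162 and 134 FPKM in MOE HIGH, against 118, 133 and 102 FPKM in MOE LOW (log2 fold change 0.39, limma adjusted p = 0.040). Reads of Cox7c may be shared with 1 near-identical copy. Cox7a2 and Cox7c lost their calls in most fits with a library left out, and Cox4i1 and Cox4nb lost theirs in none.

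Several subunits of complex IV have a general isoform and another that marks a tissue such as muscle, lung or testis. The general isoforms Cox6a1, Cox6b1 and Cox7b did not pass. Cox6a1 was at 342, 331 and 186 FPKM in MOE HIGH, against 273, 261 and 225 FPKM in MOE LOW, where passages 90 and 103 lay above MOE LOW and passage 113 below it. Cox6b1 was at 932, 878 and 680 FPKM in MOE HIGH, against 739, 786 and 682 FPKM in MOE LOW. Cox7b was at 170, 169 and 151 FPKM in MOE HIGH, against 166, 167 and 151 FPKM in MOE LOW, the smallest change of the complex. Tissue isoforms were low. Cox4i2 (lung), Cox6a2 and Cox7a1 (heart and muscle) and Cox7b2 stayed under 1 FPKM in every library, and Cox8b (heart and muscle) and Cox8c (testis) were listed at 0 in all 6. Cox6b2, the testis isoform of subunit VIb, was listed at 0 in the 3 MOE HIGH libraries, against 7.49, 5.20 and 2.56 FPKM in MOE LOW (limma adjusted p = 0.00017, with no fold given against 0). In MOE LOW it made up 1.0, 0.658 and 0.374% of the summed FPKM of Cox6b1 and Cox6b2. Of the 12 striated muscle markers, 10 were under 1 FPKM in every library, with 6 of them at 0 in all. The other 2, Tnnt2 and Tnni2, were higher in MOE HIGH. The summed marker level was 39.9 to 80.6 FPKM in MOE HIGH, against 4.32 to 8.96 FPKM in MOE LOW. Most of that sum was Tnnt2, at 73.8, 47.0 and 32.3 FPKM in MOE HIGH, against 3.82, 8.68 and 5.73 FPKM in MOE LOW.

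**Figure D2:**
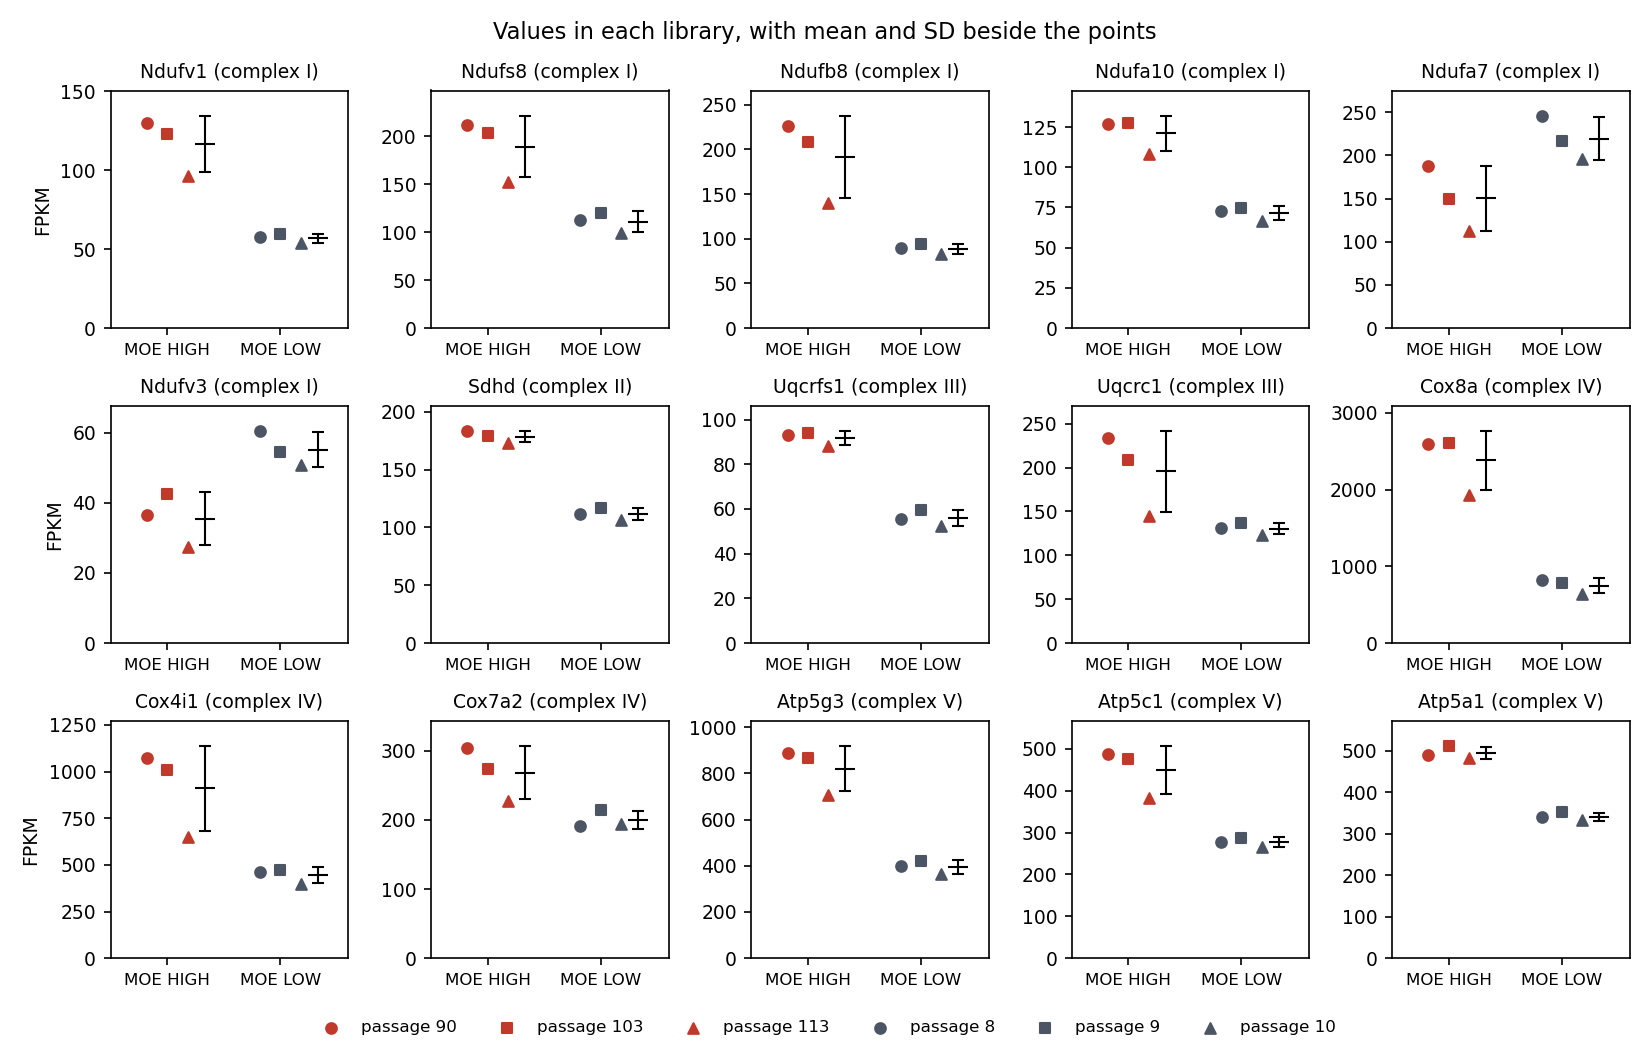
FPKM (vertical axis, from 0) of 15 genes in each library, with MOE HIGH in red on the left of each panel, MOE LOW in grey on the right, and the mean and SD of 3 libraries beside the points. For Cox8a the MOE HIGH libraries sit at 1935 to 2611 FPKM and the MOE LOW libraries at 642 to 826 FPKM, for Ndufv3 and Ndufa7 MOE HIGH sits below MOE LOW, and the triangle of passage 113 is the lowest red point in all 15 panels.

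Complex V, the ATP synthase, consists of the catalytic F1 head with its rotor, a ring of c subunits in the membrane, and a peripheral stalk that holds the head in place. Of its 17 genes, 6 were higher and 0 lower, and 11 missed the threshold, with a median log2 fold change of 0.32. Among the 17 are Atp5s and Atp5sl, which name no subunit and did not pass. In the complex 35.3% were higher, where 24.3% of all genes were higher and 32.1% lower. Higher were 3 of 5 genes of F1, 1 of 3 of the c ring, 1 of 4 of the stalk and 1 of 3 of the other membrane subunits. The shares in these small parts were 60.0, 33.3, 25.0 and 33.3%, and their contrast was not tested. Without passage 113 there were 13 higher genes and 1 lower, Atp5s (28.5% and 37.5% of all genes), without passage 8, 10, 90 or 103 there were 3 higher, and without passage 9 there were 4. Atp5g3, which encodes the c subunit, lies on chromosome 2 and was at 888, 866 and 708 FPKM in MOE HIGH, against 401, 419 and 362 FPKM in MOE LOW (log2 fold change 1.05, limma adjusted p = 0.00034, SE 0.13). Its lowest MOE HIGH library was again above its highest MOE LOW library.

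The mature c subunit is the same protein whether it comes from Atp5g1, Atp5g2 or Atp5g3, which differ in the import signal that is cut off. Atp5g1 was at 295, 271 and 202 FPKM in MOE HIGH, against 194, 210 and 168 FPKM in MOE LOW, and Atp5g2 at 270, 249 and 206 FPKM in MOE HIGH, against 229, 222 and 203 FPKM in MOE LOW. Neither passed (limma adjusted p = 0.063 and 0.38), and both have near-identical copies with which reads may be shared. Atp5g3 made up 61.1, 62.5 and 63.4% of the FPKM of the c subunit genes in MOE HIGH, against 48.7, 49.3 and 49.4% in MOE LOW. In contrast, Atp5g2 made up 18.56, 17.98 and 18.49% in MOE HIGH, against 27.77, 26.09 and 27.71% in MOE LOW. Among 6 shares of this kind that were computed, the groups did not overlap in any, and each had an exact permutation p of 0.10 (0.10 after adjustment), the smallest possible. The shares are not separate results, as those of the c subunit genes are parts of the same sum and others have Cox8a in common. Several were built on genes already called in these data, so they describe those changes and give no further support. The share of Atp5g3 was highest at passage 113, where its level was the lowest of MOE HIGH.

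**Figure D3:**
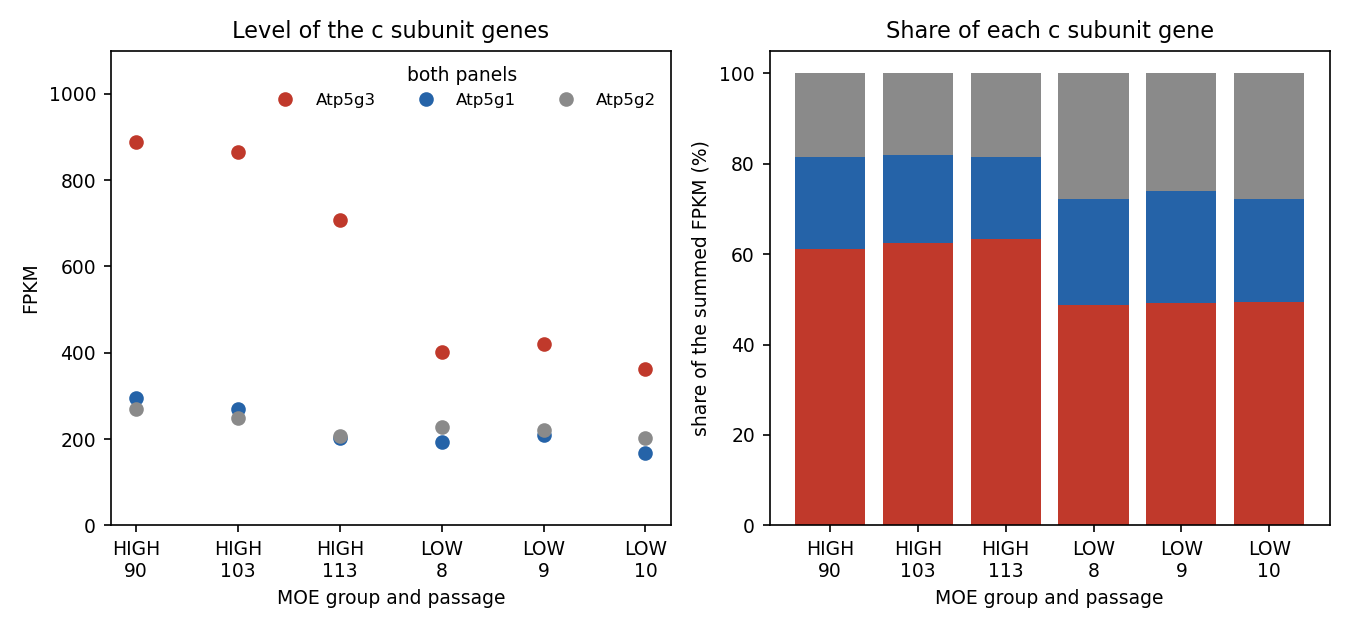
Left, FPKM of the 3 genes that encode the c subunit in each library, and right, the share of each gene in their summed FPKM (%), with the 3 MOE HIGH libraries left of the 3 MOE LOW libraries. Atp5g3 (red) takes 61.1 to 63.4% in MOE HIGH and 48.7 to 49.4% in MOE LOW.

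In F1, Atp5c1 encodes the gamma subunit, the shaft of the rotor. It was at 489, 476 and 383 FPKM in MOE HIGH, against 278, 288 and 265 FPKM in MOE LOW (log2 fold change 0.69, limma adjusted p = 0.0024, SE 0.13), although it has 1 near-identical copy. Atp5a1, the alpha subunit, was at 490, 512 and 484 FPKM in MOE HIGH, against 340, 352 and 333 FPKM in MOE LOW (log2 fold change 0.53, limma adjusted p = 0.0025, SE 0.10). Atp5b, the catalytic beta subunit and the most abundant gene of the complex, was at 984, 966 and 820 FPKM in MOE HIGH, against 704, 718 and 655 FPKM in MOE LOW (log2 fold change 0.41, limma adjusted p = 0.023). All 3 genes kept the groups apart, and Atp5b lost its call with any library but that of passage 113 left out. Outside F1, Atp5k, the e subunit, was at 687, 724 and 540 FPKM in MOE HIGH, against 490, 523 and 424 FPKM in MOE LOW (log2 fold change 0.43, limma adjusted p = 0.040). Atp5f1, the b subunit of the stalk, was at 343, 341 and 298 FPKM in MOE HIGH, against 243, 274 and 237 FPKM in MOE LOW (log2 fold change 0.38, limma adjusted p = 0.022). Atp5l, the g subunit, changed least, at 515, 501 and 389 FPKM in MOE HIGH, against 482, 502 and 416 FPKM in MOE LOW, and its sign turned with the scaling by the median of ratios. Its reads may be shared with 9 near-identical copies, and those of Atp5k and Atp5f1 with 1 copy each.

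Across the complexes 1 library of each group stood apart. Passage 113 was the lowest MOE HIGH library for 71 of the 78 genes (91.0%) and for 38.3% of all genes, and passage 10 was the lowest MOE LOW library for 72 of the 78 (92.3%) and for 38.9% of all genes. Respiratory chain genes at passage 113 were a median of -0.40 on the log2 scale from the mean of passages 90 and 103, where all genes were at 0.01. The gap went with transcript length. It was -0.53 for genes with a transcript under 600 bases, -0.42 at 600 to 1200 bases and -0.24 above 1200 bases. Over all genes of these lengths it was -0.48, -0.34 and 0.04, and the respiratory chain transcripts were short, with a median length of 870 bases against 2978 bases over all genes. Only Atp5s, Ndufs1, Ndufv2, Sdha and Uqcrc2 were above the mean of passages 90 and 103 at passage 113, and 4 of 19 tested genes with transcripts below 600 bases were higher in MOE HIGH (21.1%), 7 of 33 between (21.2%) and 11 of 26 above 1200 bases (42.3%). Over all genes of these lengths, 23.0, 25.3 and 24.1% were higher. The part of transcript length in the counts was not tested. Among the 6 libraries, passage 113 had the lowest summed FPKM, at 597161, against 624733 to 770438 in the others.

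**Figure D4:**
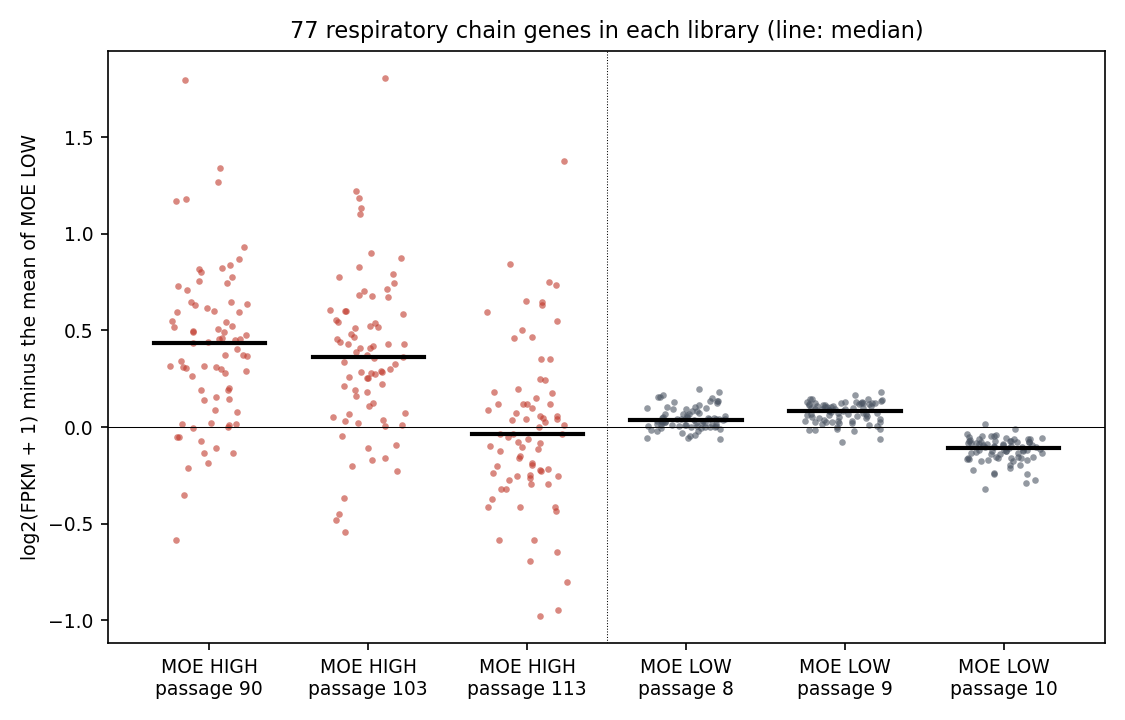
Each point is 1 of 77 tested respiratory chain genes (Cox6b2 left out), placed by library on the horizontal axis and by its log2(FPKM + 1) minus the mean of the MOE LOW libraries on the vertical axis, with a line at the median. The medians are 0.43, 0.36 and -0.04 at passages 90, 103 and 113 of MOE HIGH, against 0.04, 0.08 and -0.11 at passages 8, 9 and 10 of MOE LOW.

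As a share of the library, the 85 genes together made up 3.207, 3.309 and 3.005% of summed FPKM in MOE HIGH, against 2.573, 2.632 and 2.476% in MOE LOW. The lowest MOE HIGH share, at passage 113, was above every MOE LOW share. Without Cox8a the shares were 2.87, 2.95 and 2.68% in MOE HIGH, against 2.45, 2.52 and 2.37% in MOE LOW, and the groups still did not overlap. These shares are sums over genes of different length scaled per kilobase, and they give a description with no test.

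By position, 13 of the 78 tested genes lie on chromosomes 2, 8 and 19, and 9 of them were higher and 0 lower, with a median log2 fold change of 0.75. Of all genes on these chromosomes 47.0% were higher (median 0.33). The 65 respiratory chain genes on other chromosomes had 13 higher and 3 lower, with a median of 0.16, where 19.7% of all genes were higher (median -0.12). In a fit without chromosomes 2, 8 and 19, a choice made with earlier results known, the counts were again 13 higher and 3 lower, beside 19.5% and 35.0% of all genes. Chromosome 19 had 4 tested members, Cox8a, Ndufb8, Ndufs8 and Ndufv1, and all 4 rose, with a median log2 fold change of 1.04, where 273 of all 413 tested genes of the chromosome were higher (median 0.70). Chromosome 2 had 3 of 5 higher (Atp5g3, Atp5c1 and Ndufs3) and chromosome 8 had 2 of 4 (Cox4i1 and Cox4nb). Of all tested genes on chromosomes 2 and 8, 39.8% and 45.0% were higher. The part of the position of these genes in their change was not tested. Away from these chromosomes, the largest rises were those of Ndufa10 on chromosome 1, Uqcrfs1 on chromosome 13 and Sdhd on chromosome 9.

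**Figure D5:**
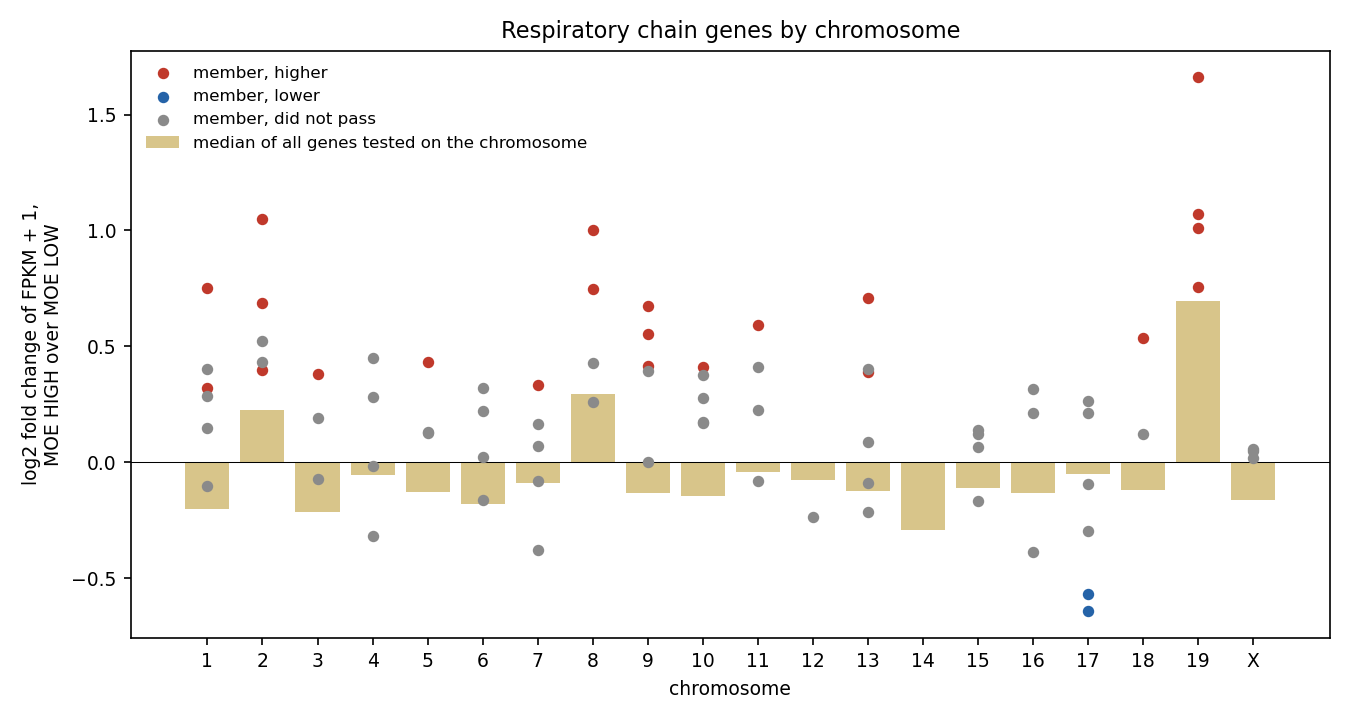
Log2 fold change of FPKM + 1, MOE HIGH over MOE LOW, of 77 respiratory chain genes (points) by chromosome, with bars for the median of all genes tested on each chromosome. The bars of chromosomes 2, 8 and 19 are at 0.22, 0.29 and 0.70, all others are below 0, and the 4 points of chromosome 19 lie above its bar.

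Genes around the chain were read from the same fit, as lists written from general knowledge. Of 12 tested genes that carry electrons beside the complexes or belong to them under other names, 5 were higher and 1 was lower (median log2 fold change 0.32). Cyc1, the cytochrome c1 of complex III, was at 183, 163 and 114 FPKM in MOE HIGH, against 87.5, 92.8 and 80.4 FPKM in MOE LOW (log2 fold change 0.78, limma adjusted p = 0.0063), and Gpd2 and Dhodh, which pass electrons to ubiquinone from outside the complexes, rose by 0.70 and 0.47. Etfdh, which takes electrons from fatty acid oxidation to ubiquinone, fell by 0.61 on the log2 scale. Complex I assembly factors had 3 of 12 higher (Ndufaf4, Foxred1 and Ndufaf1, at 0.55, 0.49 and 0.45) and 1 lower (Tmem70, at -0.53). Assembly factors of complexes II to V had 5 of 22 higher and 5 lower. Among these, Cox15, needed for heme A of complex IV, rose by 1.30 on the log2 scale, Lrpprc, which stabilises mitochondrial messenger RNA, by 0.80, and Bcs1l, which inserts the Rieske protein, by 0.40. Cox16, Ttc19 and Atpaf1 fell by 0.78, 0.65 and 0.58. The 5 of 22 genes in each direction (22.7%) stand beside 24.3% higher and 32.1% lower over all genes.

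Regulators of mitochondrial biogenesis had 8 of 17 higher (47.1%) and 0 lower, with a median log2 fold change of 0.25. These and the following shares stand beside 24.3% higher and 32.1% lower over all genes. Esrra, the estrogen-related receptor alpha, was at 45.7, 43.6 and 30.2 FPKM in MOE HIGH, against 13.2, 13.9 and 12.04 FPKM in MOE LOW (log2 fold change 1.52, limma adjusted p = 0.00014). Pprc1, a coactivator of the PGC-1 family, was at 47.1, 46.6 and 49.4 FPKM in MOE HIGH, against 19.1, 18.5 and 19.7 FPKM in MOE LOW (log2 fold change 1.28, limma adjusted p = 1.4e-05), and Peo1, the mitochondrial DNA helicase, rose by 1.42. Groups were far apart for all 3 genes, which, like Cox8a, lie on chromosome 19. The other regulators called higher, Ppargc1b, Tfam, Nrf1, Ssbp1 and Gabpb1, lie on other chromosomes. Ppargc1a and Esrrg were under the minimum level. The tricarboxylic acid cycle, listed with pyruvate dehydrogenase and pyruvate carboxylase, had 6 of 19 higher and 2 lower (31.6% and 10.5%). Idh2, Idh3b and Pdhx, the last of pyruvate dehydrogenase, rose by 0.92, 0.67 and 0.58, and Suclg2 and Sucla2 fell by 0.53 and 0.28. Coenzyme Q synthesis had 5 of 13 higher and 4 lower (38.5% and 30.8%). Pdss1, which starts the tail of coenzyme Q, rose by 1.64, and Coq7 and Pdss2 by 0.88 and 0.78, while Coq10b, Adck4 and Coq2 fell by 0.78, 0.67 and 0.39. Among carriers and other inner membrane proteins 4 of 13 were higher and 3 lower (30.8% and 23.1%). Slc25a10, Phb2 and the ADP/ATP carrier Slc25a5 rose by 1.21, 0.74 and 0.63, and Slc25a20 and Slc25a1 fell by 0.77 and 0.70. Ucp2, an uncoupling protein relative, was at 10.7, 12.4 and 20.1 FPKM in MOE HIGH, against 105, 106 and 112 FPKM in MOE LOW (log2 fold change -2.86, limma adjusted p = 1.6e-05).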

How the data were processed

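Total RNA of 6 libraries was depleted of ribosomal RNA and sequenced. The authors mapped the reads to mm10 (TopHat2 2.0.8b), estimated gene levels with Cufflinks and Cuffdiff 2.1.1 from a UCSC annotation, and deposited them as FPKM. Counts were not used here and absolute depth is not known, so no interval from counting can be given. At the lowest values, 1 fragment was worth less than at passage 8 by 0.17 and 0.15 on the log2 scale at passages 9 and 10. Of the genes compared, 19.4% and 33.4% lay near these steps. In MOE HIGH the most common log2 ratio to passage 8 was -0.35, -0.45 and -0.39 at passages 90, 103 and 113. Only 7.5, 4.1 and 11.0% of genes lay near these values, so the steps of MOE HIGH are uncertain. Of 23141 entries, 577 fell under 236 repeated symbols, of which 1 entry each was used, the one highest on average.

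The limma package (3.58.1, R 4.3.3) tested log2(FPKM + 1) with a variance trend and no block, in genes averaging 0.5 FPKM or more, and Benjamini-Hochberg adjustment ran over all 11621 of them. Summaries used Python 3.11.15, numpy 2.4.6, pandas 2.3.3 and scipy 1.17.1. Positions, lengths and copies (at least 95% identical over 200 bases, found for 21 of the 85 genes) came from GENCODE transcripts of GRCm38, and 4 genes were matched by an older symbol. Not every gene with a copy is marked as such above. The fit was tested on simulated data with independent noise in each gene. The simulation held no shift shared by the genes of a library, so it cannot speak to such a shift. The members, the lists of other genes, the markers and the motifs were chosen with earlier results of these data known. Values in every library are given for up to 4 called genes per direction and complex that averaged 5 FPKM or more in separate groups, for the highest mean, the smallest change and tissue isoforms, and for Ndufs1, Ndufs3, Sdhc, Cox7c, Atp5g1, Atp5g2 and Atp5f1, added after their values were seen. Of each list, up to 3 called genes per direction with the same minimum are named. Alternatives were other scalings, pseudocounts, filters, thresholds and groupings of symbols, a replicate block, and each library left out. The values of 1 gene are not reported here.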

Additional observations from a re-analysis of the deposited data

How the results depend on the processing

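FPKM carry no counts, so precision at low levels is not known, and each group is 3 passages of 1 line. The counts of 22 higher and 3 lower respiratory chain genes kept the same direction of majority in every alternative and moved with library and threshold; the cause was not tested. With each library left out in turn, higher calls ranged from 12 to 49 in all, 4 to 17 in complex I, 1 to 2 in complex II, 1 to 7 in complex III, 3 to 10 in complex IV and 3 to 13 in complex V, and lower calls from 2 to 4 in all, 1 to 3 in complex I and 0 to 1 in complex V. Over all genes, 2826 higher and 3734 lower in the main fit, these ranges were 2212 to 3318 higher and 3030 to 4378 lower. An adjusted p of 0.01 left 12 higher and 1 lower, with 1 higher in complex III, 3 in complex IV, 3 in complex V and 0 lower in complex I (1933 higher and 2894 lower over all genes). A test against a 1.5-fold change, which asks for more than a difference from 0, left 3 higher and 1 lower: 1 higher in each of complexes I, IV and V, 0 in complexes II and III, and 0 lower in complex I (703 higher and 1586 lower over all genes). Equal totals gave 8 lower, 7 of them in complex I, and 2 higher in complex II (2256 higher and 3562 lower over all genes). No filter left 1 lower in complex I (2907 higher and 4534 lower over all genes), and a minimum mean of 5 FPKM left 0 lower in complex IV, where Cox6b2 is under that mean, and 2350 lower over all genes. Without chromosomes 2, 8 and 19, a fit with 65 respiratory chain genes that was added with earlier results known, 13 were higher, with 2 in complex I and 2 in complex IV, and 1880 over all genes. With the replicate block, 32 were higher and 5 lower, with 10 higher and 4 lower in complex I and 2 higher in complex II (2967 higher and 3839 lower over all genes). Same-numbered libraries of the 2 groups share only a number: their deviations from the group means correlated across genes at -0.024, -0.147 and 0.123, and only MOE HIGH replicate 3 correlated best with its own number. The scaling by the median of ratios, a pseudocount of 0.1 and summed entries kept the counts at 22 and 3, and with only the symbols that name a subunit they were 21 and 3. Of 503 values of 32 named genes, 421 kept direction and side of the threshold, 60 lost and 10 gained a call, and 12 reversed, all in genes that did not pass. These were the log2 fold changes of Atp5l (0.0056 by the median of ratios, -0.081 to 0.13 over the fits with a library left out), Cox7b (-0.048 with equal totals, -0.029 to 0.074 with a library left out), and, with a library left out, Cox6a1 (-0.024 to 0.41), Ndufb6 (-0.10 to 0.096) and Uqcrb (-0.20 to 0.013).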
